A study of Rattus norvegicus with 6 samples.

Results

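Amino acid transporters of the plasma membrane were examined in cardiac fibroblasts of neonatal rats (NRCFs), which were primary cultures from heart tissue. The group comprised 10 genes of 21857 gene symbols in the count files, chosen by symbol: Slc7a1, Slc7a5, Slc7a11, Slc3a2, Slc1a4, Slc1a5, Slc38a1, Slc38a2, Slc6a9 and Slc43a2. All 10 were present, and all 10 passed the filter on low counts. RNA-seq libraries came from 2 groups, 3 from cells that received the empty plasmid (Vector, genotype label WT) and 3 labelled FTO overexpression, meaning a plasmid carrying FTO, the demethylase that removes N6-methyladenosine from RNA. Both groups were primary cells of newborn rats, taken within 3 days of birth, from Sprague-Dawley animals by the series' design text, although the strain field of the labels reads Noway. Whether each library came from its own culture is not given, so p-values measure the spread between these libraries, which may be technical. It is also not given whether the sequenced cells were kept in hypoxia, as other cultures of the study were.

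Amino acids cross the cell membrane through carriers that differ in substrate and in driving force. Some take up amino acids together with sodium, some only exchange an internal amino acid for an external one, and some let them flow down their gradient. Several carriers are heterodimers, in which the heavy chain encoded by Slc3a2 brings a light chain such as that of Slc7a5 or Slc7a11 to the membrane. In fibroblasts, glycine and proline are in demand for collagen, cystine for glutathione, and leucine for the activation of the growth kinase complex mTORC1. Transcription of several of these genes is known to rise through the factor ATF4 when amino acids are short.

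Fto itself was at 87.8, 89.6 and 87.4 CPM (a gene's count divided by its library's total after TMM scaling in edgeR, and multiplied by 1000000) in the Vector libraries and at 93.2, 90.8 and 92.9 CPM in the libraries labelled FTO. Each library labelled FTO was thus slightly above each Vector library, by 0.06 on the log2 scale (95% confidence interval of the fold 0.976 to 1.12), which did not pass the edgeR quasi-likelihood test (adjusted p = 0.239). For this reason the group is referred to by its label, and directions are given relative to Vector. Libraries held 13178952 to 17857999 counts. All 9 fibroblast markers examined were detected, with Col1a1 at 25809 ± 337 CPM in Vector and 8268 ± 377 CPM in the libraries labelled FTO, and Pdgfra at 173 ± 5.02 and 976 ± 91.0 CPM (SD, n = 3). They differed between the groups too, with 4 higher and 5 lower, all called by edgeR, as were 65.9% of all genes tested. Their summed level was 40130 to 40765 CPM in Vector and 19822 to 20812 CPM in the libraries labelled FTO. Most of that sum was Col1a1 and Col3a1, the latter at 10699 and 3338 CPM, so it does not describe the other markers. Among the 4 higher, Dcn increased from 47.0 to 5611 CPM and Lum from 48.7 to 432 CPM. Among the 5 lower, Vim decreased from 3161 to 1250 CPM.

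Upstream sequence is shown for 4 of the transporters, the 3 whose window holds a motif of the amino acid response and the 1 that was higher, as a description of letters that no value here ties to the counts. RefSeq gave a start site window on the rat assembly GRCr8 for 9 of the 10 genes, with 2 windows for Slc3a2, and the 250 bases before each start were searched on both strands. The C/EBP-ATF response element core TGATGNAA, a sequence bound by ATF4 with a C/EBP partner, occurred in 3 of the 10 windows, against 3.40% of 33461 windows of the same length over all genes. The 3 were those of Slc7a1, Slc1a4 and Slc38a1. They are printed with the match in capitals, next to the window of Slc43a2, in which these letters do not occur. They do not occur either in the windows of Slc7a5, Slc7a11, Slc3a2, Slc38a2 and Slc6a9, all of which were lower in the libraries labelled FTO, so most lower members with a window were without the motif. On the strand of Slc1a4 the match reads as its reverse complement. Coordinates are those of GRCr8 and were not used with the counts, whose notes name the build rn6.
Slc7a1 (chr12:11664238-11664487, + strand): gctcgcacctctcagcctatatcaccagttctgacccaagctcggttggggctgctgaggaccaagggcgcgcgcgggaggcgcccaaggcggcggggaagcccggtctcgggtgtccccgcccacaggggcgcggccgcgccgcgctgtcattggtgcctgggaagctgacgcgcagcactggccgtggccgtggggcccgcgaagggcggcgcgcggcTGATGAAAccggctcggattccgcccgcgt
Slc1a4 (chr14:98761563-98761812, - strand): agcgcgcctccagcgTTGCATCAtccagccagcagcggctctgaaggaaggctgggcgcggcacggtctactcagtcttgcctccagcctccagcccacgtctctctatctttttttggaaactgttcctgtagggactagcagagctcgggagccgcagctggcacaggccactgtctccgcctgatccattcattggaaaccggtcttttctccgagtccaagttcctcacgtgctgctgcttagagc
Slc38a1 (chr7:129681402-129681651, - strand): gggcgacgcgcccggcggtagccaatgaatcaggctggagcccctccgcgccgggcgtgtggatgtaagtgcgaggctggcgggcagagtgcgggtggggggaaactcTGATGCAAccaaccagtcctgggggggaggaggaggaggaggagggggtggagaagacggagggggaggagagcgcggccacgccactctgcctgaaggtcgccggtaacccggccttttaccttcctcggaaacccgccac
Slc43a2 (chr10:60874588-60874837, + strand): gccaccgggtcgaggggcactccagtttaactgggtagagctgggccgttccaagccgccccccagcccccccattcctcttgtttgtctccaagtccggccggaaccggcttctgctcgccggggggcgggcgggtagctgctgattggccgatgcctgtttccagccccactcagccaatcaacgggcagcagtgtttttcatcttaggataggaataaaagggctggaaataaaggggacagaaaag

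The matches lay 30 bases before the start in Slc7a1, 142 in Slc38a1 and 235 in Slc1a4, counted to the far end of the match. The E-box CACGTG, bound by MYC and related factors, was found in 2 of the 10 windows, those of Slc7a5 and Slc1a4, against 5.59% of all windows. The core TGACNNNGC of the antioxidant response element, bound by NRF2, was found in 3 of 10 (Slc7a1, Slc38a2 and the second window of Slc3a2), against 10.1% of all windows. The window of Slc7a11 held none of these motifs. A match describes letters only, and a window without them says nothing of the factor.

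Transporter transcripts were lower in the libraries labelled FTO for 9 of the 10 genes, and Slc43a2 alone was higher. The steepest decreases were those of the neutral amino acid exchanger Slc1a4, 3.33-fold, and of the light chain Slc7a5, 3.05-fold. Slc38a2, the sodium-coupled carrier with the most counts, fell by only 1.17-fold. All 10 genes passed the edgeR test at an adjusted p of 0.05, as did 65.9% of the 12941 genes tested. Against the 9 lower and 1 higher members, 32.8% of all genes tested were lower and 33.2% were higher. For none of the 10 did the Vector and FTO-labelled values overlap, which also held for 70.3% of all genes. At the threshold of the study's methods, a size of 1 or more on the log2 scale with an unadjusted p-value under 0.05, 4 of the 10 passed (Slc1a4, Slc7a5, Slc38a1 and Slc7a1, all lower), against 19.6% of all genes tested. The median log2 fold change was -0.80 over the 10 and 0.00 over all genes, and the median of its size was 0.80 and 0.36. These 10 genes were chosen with earlier results of these data known.

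**Figure D1:**
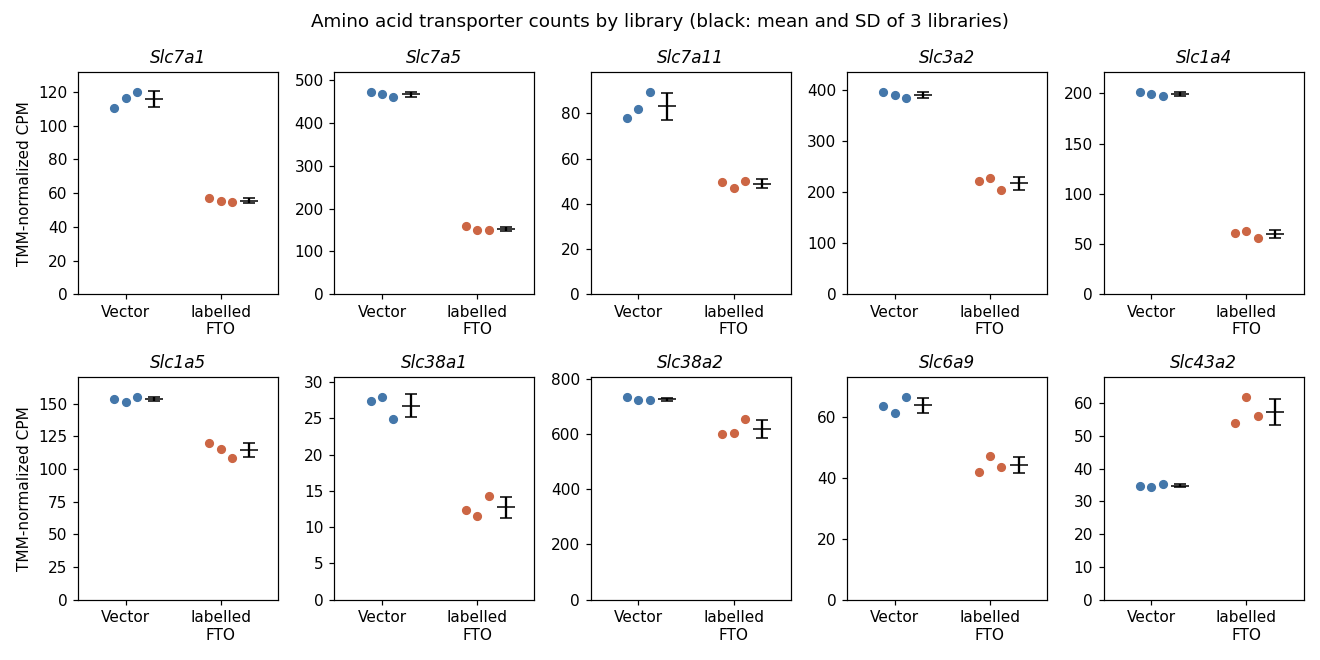
Counts of each transporter by library, on the vertical axis as TMM-normalized CPM from 0, with 3 Vector libraries (blue) and 3 libraries labelled FTO (orange) and the mean and SD in black. In every panel the groups are apart, with the libraries labelled FTO lower except for Slc43a2.

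Summed over the 10 genes, the counts were 2269.8, 2253 and 2256 CPM in the Vector libraries and 1375, 1382 and 1392 CPM in those labelled FTO. The sums were thus closely alike within each group, at 2259.6 ± 8.98 and 1383 ± 8.67 CPM (SD, n = 3). The make-up of the sum moved as well. Slc38a2 gave on average 32.1% of it in Vector and 44.8% in the libraries labelled FTO, while Slc7a5 gave 20.6% and 11.1% and Slc1a4 8.82% and 4.33%. Slc43a2 gave 1.54% and 4.15%. Longer transcripts collect more reads, and transcript lengths were not used here, so these shares say nothing of the order of molecule numbers between genes.

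Macrophage markers moved with the groups and are given for that reason. Marker counts are of edgeR calls, where 65.9% of all genes tested were called, 32.8% lower and 33.2% higher. Of 10 tested, 9 were lower and 1 (Adgre1) was higher in the libraries labelled FTO, and their summed level was 695 to 715 CPM in Vector and 203 to 228 CPM in the libraries labelled FTO. Cardiomyocyte markers were higher in 9 of 10 cases, with sums of 1563 to 1596 and 2411 to 2476 CPM. The 1 that was lower, Tnnt2, was at 770 CPM in Vector and 649 CPM in the libraries labelled FTO, a large part of both sums. Mural markers went both ways, 3 higher and 4 lower of 7 tested, with sums of 1117 to 1143 and 754 to 792 CPM. These sums hide larger changes. Des went from 86.4 to 472 CPM and Kcnj8 from 2.06 to 60.8 CPM, while Mcam went from 399 to 55.2, Myh11 from 315 to 27.1 and Notch3 from 226 to 14.9 CPM. Endothelial markers summed to 117 to 122 and 115 to 119.9 CPM, with 4 higher and 1 lower of 6 tested. Most of that sum was Flt1, the 1 that was lower, at 94.3 CPM in Vector and 63.5 CPM in the libraries labelled FTO. The 4 higher were less counted, with increases of 4.39-fold (Kdr), 3.00-fold (Cdh5), 2.23-fold (Tek) and 1.93-fold (Egfl7). No marker was at 0 in all libraries. In bulk RNA, fewer cells of a type and less RNA per cell cannot be told apart, and the part of these cells in the transporter values was not tested.

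The heterodimer genes were examined first. Slc3a2 encodes the CD98 heavy chain, which anchors and traffics the light chains. It was at 396, 390.4 and 384 CPM in the Vector libraries and at 221, 227 and 203 CPM in the libraries labelled FTO. The lowest Vector library thus stood well above the highest of the other group. Its log2 fold change was -0.85 (SE 0.0462), a 1.80-fold decrease (edgeR, adjusted p = 2.7e-10).

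Slc7a5 encodes LAT1, the light chain that exchanges large neutral amino acids such as leucine for intracellular glutamine. Its level was 472, 468 and 460 CPM in Vector and 159, 151 and 150 CPM in the libraries labelled FTO. Libraries within a group differed by little, with coefficients of variation of 1.29% and 3.26%. The log2 fold change was -1.61 (SE 0.0418) and edgeR's adjusted p 3.0e-14, which placed Slc7a5 at percentile 4.74 of the fold changes of all tested genes, counted from the largest decrease.

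Slc7a11 encodes xCT, the light chain that takes up cystine in exchange for glutamate. It was at 78.0, 81.9 and 89.5 CPM in Vector and at 49.8, 46.9 and 50.3 CPM in the libraries labelled FTO. The Vector libraries were more spread out for this gene than for any other of the 10, with a coefficient of variation of 7.02%, and still did not reach the other group. A log2 fold change of -0.76 (SE 0.0618) was obtained (edgeR, adjusted p = 3.3e-08).

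The exchangers Slc1a4 and Slc1a5 came next. Slc1a4 encodes ASCT1, which exchanges alanine, serine, cysteine and threonine. Its level was 201, 199 and 197 CPM in Vector and 61.1, 62.9 and 55.6 CPM in the libraries labelled FTO. This was the largest change among the 10, at a log2 ratio of -1.74 (SE 0.0517), percentile 4.10 of all tested genes (edgeR, adjusted p = 1.6e-13). Slc1a5 encodes ASCT2, a related exchanger that carries glutamine. It was at 154, 152 and 155 CPM in Vector and at 119.7, 116 and 108 CPM in the libraries labelled FTO. Its decrease was 1.34-fold, at a log2 ratio of -0.42 (SE 0.0474, adjusted p = 1.4e-06).

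The sodium-coupled carriers of neutral amino acids, known as system A, were Slc38a1 (SNAT1) and Slc38a2 (SNAT2), which have no other protein-coding gene between them in the RefSeq annotation of GRCr8. Slc38a1 was the least counted of the 10, with a mean of 289.5 counts per library. It was at 27.4, 27.9 and 24.9 CPM in Vector and at 12.4, 11.5 and 14.4 CPM in the libraries labelled FTO. The groups stayed apart although the libraries labelled FTO varied by 11.5%, more than for any other of the 10. The log2 fold change was -1.06 (SE 0.0965) and edgeR's adjusted p 1.3e-07. Slc38a2 was at 733, 722 and 724 CPM in Vector and at 599, 603 and 656 CPM in the libraries labelled FTO, where replicate 3 lay nearest to Vector. Its log2 fold change was -0.23 (SE 0.0427) and edgeR's adjusted p 2.3e-04. When tested against a 1.2-fold change with glmTreat of edgeR, Slc38a2 was not called (adjusted p-value 0.744).

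Slc7a1, Slc6a9 and Slc43a2 work without the CD98 heavy chain. Slc7a1 encodes CAT1, the carrier of the cationic amino acids arginine and lysine. Its level was 111, 116 and 120 CPM in Vector and 57.0, 55.4 and 54.6 CPM in the libraries labelled FTO. The decrease was 2.08-fold, at a log2 ratio of -1.06 (SE 0.0519) and edgeR's adjusted p 7.1e-11. Slc6a9 encodes GLYT1, which takes up glycine with sodium and chloride. It was at 63.5, 61.3 and 66.3 CPM in Vector and at 41.9, 47.0 and 43.6 CPM in the libraries labelled FTO. Its log2 fold change was -0.53 (SE 0.0619, adjusted p = 2.2e-06).

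Slc43a2 encodes LAT4, which lets large neutral amino acids such as leucine and phenylalanine pass down their gradient. It was at 34.6, 34.4 and 35.4 CPM in Vector and at 54.0, 61.8 and 56.2 CPM in the libraries labelled FTO. Each library labelled FTO thus exceeded each Vector library, unlike for the other 9 genes. The increase was 1.65-fold, at a log2 ratio of 0.72 (SE 0.0653), percentile 86.1 of all tested genes (edgeR, adjusted p = 1.2e-07).

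Related transporters were then set against each other within each library, since the 10 genes did not change by the same amount. Ratios of counts were taken for 5 pairs and compared by a two-sided exact permutation test over the 6 libraries. With 3 libraries against 3 the smallest p-value possible is 0.1, so none of the 5 could pass 0.05, and adjustment over the 5 pairs gave 0.125 for each pair whose ratios did not overlap.

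The ratio of Slc1a5 to Slc1a4 was 0.764, 0.762 and 0.786 in Vector and 1.96, 1.84 and 1.95 in the libraries labelled FTO. It was thus 2.48-fold higher there, with no overlap (exact p-value 0.1). The ratio of Slc38a2 to Slc38a1 was 26.7, 25.9 and 29.0 in Vector and 48.2, 52.5 and 45.7 in the libraries labelled FTO, 1.79-fold higher (exact p-value 0.1). In both pairs every ratio in the libraries labelled FTO was above every ratio in Vector.

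Among the heterodimer genes, the ratio of Slc7a5 to Slc3a2 was 1.193, 1.199 and 1.196 in Vector and 0.719, 0.664 and 0.736 in the libraries labelled FTO. The ratio of this light chain to its heavy chain was thus lower by a factor of 1.69, with no overlap (exact p-value 0.1). The ratio of Slc7a11 to Slc3a2 was 0.197, 0.210 and 0.233 in Vector and 0.225, 0.206 and 0.248 in the libraries labelled FTO. These overlapped, with a difference of 0.09 on the log2 scale against SDs of 0.12 and 0.13 (exact p-value 0.5), so no difference was detected with this number of libraries. Between the 2 light chains, the ratio of Slc7a11 to Slc7a5 was 0.165, 0.175 and 0.195 in Vector and 0.314, 0.311 and 0.337 in the libraries labelled FTO, 1.80-fold higher (exact p-value 0.1).

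**Figure D2:**
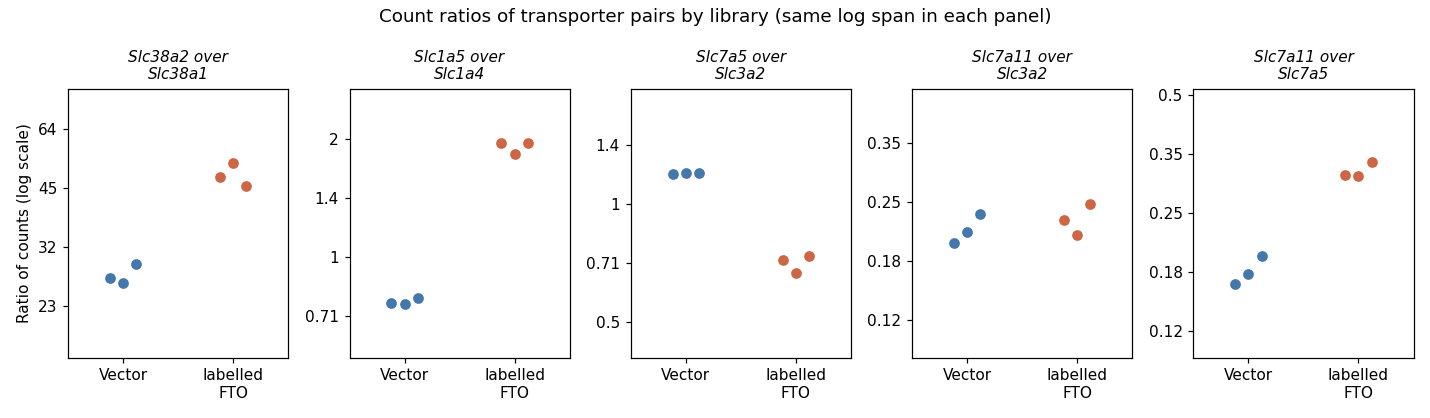
Ratio of counts for 5 transporter pairs in each library (vertical axis, log scale with the same span in each panel), with 3 Vector libraries in blue and 3 labelled FTO in orange. The groups are apart in 4 panels and overlap for Slc7a11 over Slc3a2.

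The other light chains that pair with the heavy chain moved both ways. Slc7a6, which exchanges cationic for neutral amino acids, was at 92.6 ± 4.11 CPM in Vector and 67.5 ± 3.65 CPM in the libraries labelled FTO (SD, n = 3), a log2 fold change of -0.45 (adjusted p-value 4.5e-06, edgeR). Slc7a7, of the same system, decreased from 21.8 ± 0.432 to 9.33 ± 1.03 CPM, a change of -1.24 on the log2 scale (adjusted p-value 3.1e-08). Slc7a8, a second light chain for neutral amino acids known as LAT2, increased from 18.2 ± 2.09 to 28.4 ± 1.04 CPM, or by 0.64 on the log2 scale (adjusted p-value 1.3e-05). Slc7a10 had at most 3 counts in any library and was not tested. Of the 5 light chains tested, 4 were therefore lower and Slc7a8 was higher.

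Beyond the 10 genes, a list of 35 other plasma membrane amino acid transporters was examined, of which 34 were analysed and 19 had enough counts to be tested. Of the 19, 7 were higher, 10 lower and 2 did not pass, so 89.5% were called, against 65.9% of all genes tested. The 7 include Slc43a3, which is listed by its family name but is known to carry purine nucleobases. Their median log2 fold change was -0.45, with a range from -4.04 to 3.73, wider than the range from -1.74 to 0.72 of the 10. Their summed level was 756 to 766 CPM in Vector and 717 to 832 CPM in the libraries labelled FTO. These sums overlapped, but they include Slc43a3, at 9.84 CPM in Vector and 106.5 CPM in the libraries labelled FTO. The overlap therefore does not describe the amino acid carriers alone.

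The largest increases were those of 2 glutamate carriers and of a relative of Slc43a2. Slc1a1, a sodium-coupled glutamate and cysteine carrier, was at 0.658, 0.671 and 1.52 CPM in Vector and at 12.3, 14.8 and 11.3 CPM in the libraries labelled FTO, 13.3-fold higher (adjusted p-value 1.3e-09, edgeR). Slc1a3, the glutamate carrier GLAST, increased from 26.8 ± 1.201 to 101 ± 7.80 CPM, 3.76-fold (adjusted p-value 1.6e-12). So within the SLC1 family the glutamate carriers Slc1a1 and Slc1a3 were higher and the neutral exchangers Slc1a4 and Slc1a5 lower. A further glutamate carrier, Slc1a7, named after its values were seen, was lower on few counts (log2 ratio -1.47, a mean of 18.2 counts per library, adjusted p-value 0.00217). Slc43a3, which is known to carry purine nucleobases despite its family name, increased from 9.84 ± 1.67 to 106.5 ± 24.2 CPM, 10.8-fold (adjusted p-value 2.2e-11).

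The largest decrease was that of Slc7a3, a cationic amino acid carrier like Slc7a1. It was at 38.6, 36.6 and 35.2 CPM in Vector and at 2.03, 2.11 and 2.46 CPM in the libraries labelled FTO, 16.5-fold lower (adjusted p-value 7.0e-14, edgeR). The third carrier of this kind, Slc7a2, was singled out after its values were seen, since it went the other way, from 54.0 to 82.8 CPM, at a log2 ratio of 0.62 (adjusted p-value 1.9e-07). Slc38a4, a further system A carrier, decreased from 78.1 ± 1.90 to 31.3 ± 5.82 CPM, 2.47-fold (adjusted p-value 8.1e-09). All 3 system A genes, Slc38a1, Slc38a2 and Slc38a4, were therefore lower. Slc6a6, the taurine carrier, decreased from 139.9 ± 1.75 to 64.0 ± 11.7 CPM, 2.17-fold (adjusted p-value 2.5e-08).

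**Figure D3:**
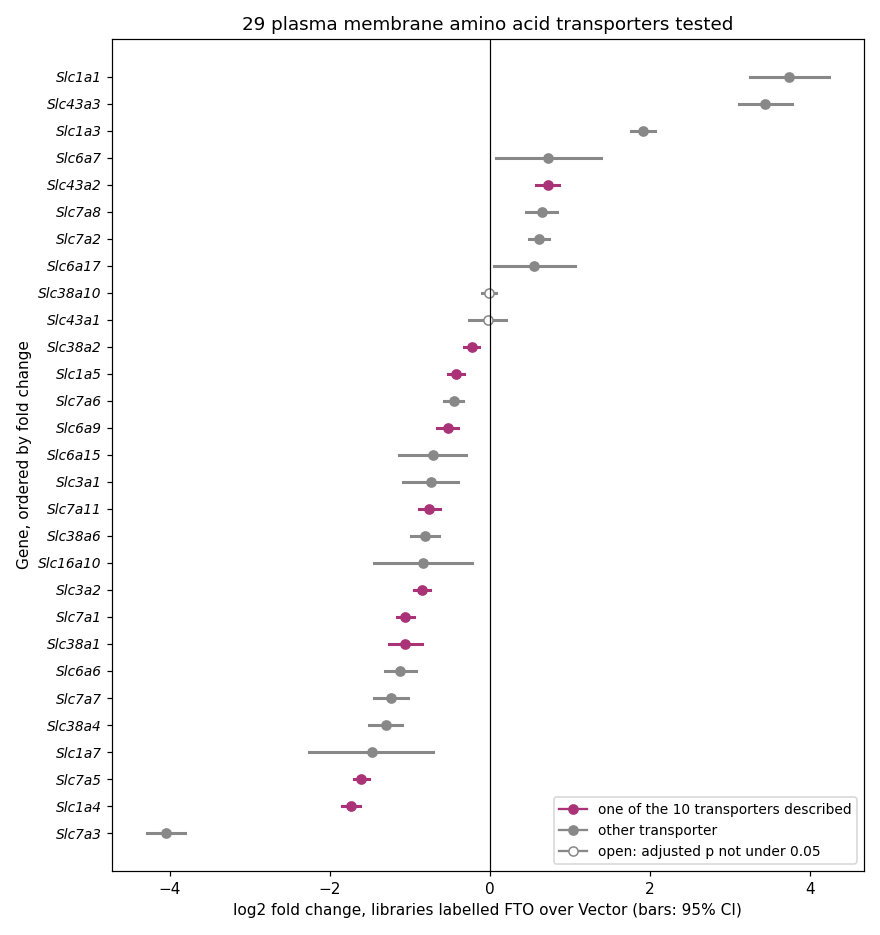
Log2 ratio of FTO-labelled to Vector libraries for the 29 tested genes listed as plasma membrane amino acid transporters, with 95% confidence intervals. The 10 transporters of the report are in purple and 19 others in grey, open where the adjusted p-value was not under 0.05. The 19 include Slc43a3, which is known to carry purine nucleobases. Of the 10, only Slc43a2 lies above 0, at 0.72, and the others run from -0.23 to -1.74.

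Transporters of the lysosome were examined as well, many but not all of which return amino acids or peptides from protein breakdown to the cytosol. Of 10 tested, 6 were lower, 1 was higher and 3 did not pass, with a median log2 fold change of -0.23. The called share was 70%, near the 65.9% of all genes tested. Mfsd12, needed for cysteine import into lysosomes and related organelles, decreased from 24.2 ± 0.838 to 8.15 ± 0.693 CPM, 2.95-fold (adjusted p-value 1.3e-09, edgeR). Slc36a4, a proline and tryptophan carrier, decreased from 22.7 ± 1.84 to 12.3 ± 2.57 CPM (adjusted p-value 1.9e-05). Slc15a3, a peptide and histidine carrier abundant in immune cells, increased from 10.2 ± 1.78 to 29.4 ± 3.82 CPM, 2.87-fold (adjusted p-value 4.3e-08).

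The amino acid response was examined next, because ATF4 is known to drive several of the 10 genes. Its list also held the kinases Eif2ak1 to Eif2ak4, which do not all sense a shortage of amino acids. Of these, Eif2ak1 and Eif2ak2 were higher, Eif2ak3 was lower and Eif2ak4 did not pass. Of 24 genes of the list tested, 16 were lower, 5 higher and 3 did not pass, with a median log2 fold change of -0.78, beside -0.80 for the transporters. Single genes of the list ran from -3.43 to 2.12. Their called share was 87.5%, against 65.9% of all genes tested. Atf4 itself was at 426, 421 and 426 CPM in Vector and at 260.2, 276 and 246 CPM in the libraries labelled FTO, a log2 fold change of -0.70 (adjusted p-value 2.0e-09, edgeR). ATF4 is regulated mainly at translation, which these counts do not measure, and its part in the transporter values was not tested.

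Among its other genes, Vldlr, a lipoprotein receptor, decreased from 462 ± 8.65 to 42.8 ± 2.70 CPM, 10.8-fold (adjusted p-value 4.9e-17, edgeR). Pycr1, which makes proline in mitochondria, decreased from 22.6 ± 2.18 to 3.10 ± 0.413 CPM, 7.31-fold (adjusted p-value 3.0e-11). Of the 5 genes of this list that were higher, the largest increases were those of Cebpb and Eif2ak2. Eif2ak2, a kinase that senses double-stranded RNA and is induced by interferon, increased from 54.0 ± 4.06 to 207 ± 2.44 CPM (adjusted p-value 7.7e-14). Cebpb, a factor of the acute-phase response and a partner of ATF4, was at 21.2, 48.1 and 65.4 CPM in Vector and at 196, 217 and 175 CPM in the libraries labelled FTO (adjusted p-value 6.9e-07). Ddit3, which encodes the stress factor CHOP and is a known target of ATF4, was singled out after its values were seen and increased from 32.5 ± 0.794 to 79.2 ± 6.49 CPM, 2.43-fold (adjusted p-value 1.8e-10). Most of the list went the other way, with 16 of the 24 tested genes lower and 5 higher. Chac1, Trib3 and Asns, also named after their values were seen, were lower, at log2 ratios of -2.86, -2.21 and -1.03.

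Cystine taken up by Slc7a11 is used for glutathione, and Slc7a11 is also known as a target of NRF2. While Slc7a11 was lower, all 12 tested genes of a list of glutathione and NRF2 pathway genes were higher in the libraries labelled FTO. This list also holds the adhesion receptor Cd44. The log2 ratios ran from 0.21 to 1.95, with a median of 0.70. Any part of NRF2 in the Slc7a11 values was not tested. All 12 passed the edgeR test, where 33.2% of all genes were called higher. The quinone reductase Nqo1 was at 32.8, 31.4 and 32.8 CPM in Vector and at 120, 153 and 104 CPM in the libraries labelled FTO, 3.87-fold higher (adjusted p-value 4.0e-10). Hmox1, which degrades heme, increased from 161 ± 4.29 to 380.0 ± 28.2 CPM, 2.36-fold (adjusted p-value 1.4e-11).

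Enzymes around arginine, the substrate of Slc7a1 and Slc7a3, were listed together whether they use it, make it (Ass1 and Asl) or use its product ornithine (Odc1). Of 7 tested, 4 were higher, 2 lower and 1 did not pass, a called share of 85.7% beside 65.9% of all genes tested. Ass1, which remakes arginine from citrulline, was at 1.17, 0.537 and 0.554 CPM in Vector and at 61.5, 60.6 and 50.1 CPM in the libraries labelled FTO, 76.0-fold higher (adjusted p-value 6.4e-14, edgeR). Gatm, which turns arginine and glycine into a creatine precursor, decreased from 25.0 ± 1.02 to 2.94 ± 0.529 CPM, 8.54-fold (adjusted p-value 7.4e-12). Arg1, which cleaves arginine to ornithine, increased from 8.76 ± 1.43 to 13.5 ± 1.84 CPM (adjusted p-value 0.00119). Odc1, the first enzyme of polyamine synthesis, decreased from 180.5 ± 6.06 to 143 ± 12.3 CPM (adjusted p-value 9.9e-05, but 0.0684 with glmTreat).

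Among 9 genes that use glutamine and glutamate, 2 were higher, 5 lower and 2 did not pass, a called share of 77.8% where 65.9% of all genes were called, 33.2% higher and 32.8% lower. Glul, which makes glutamine, was at 220, 208 and 216 CPM in Vector and at 636, 618 and 656 CPM in the libraries labelled FTO, 2.97-fold higher (adjusted p-value 4.4e-14, edgeR). The glutamine carriers Slc1a5, Slc38a1 and Slc38a2 were lower in the same libraries. The transaminase Gpt2 decreased from 41.5 ± 2.93 to 28.7 ± 4.33 CPM (adjusted p-value 1.7e-04), and Got2 increased from 221 ± 10.2 to 277 ± 15.3 CPM (adjusted p-value 3.5e-05, but 0.0773 with glmTreat).

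For branched-chain amino acids, substrates of Slc7a5 and Slc43a2, 3 of 7 genes were higher, 2 lower and 2 did not pass, a called share of 71.4%, near the 65.9% of all genes. Bckdha and Bckdhb, subunits of the dehydrogenase that commits them to breakdown, increased 2.56-fold, from 27.4 ± 1.62 to 70.3 ± 3.10 CPM, and 2.04-fold, from 17.7 ± 0.731 to 36.5 ± 5.01 CPM (adjusted p-values 5.7e-11 and 2.1e-07, edgeR). The 2 that did not pass were Dbt, a further subunit of that dehydrogenase, and Bckdk, its kinase. Their log2 ratios were -0.02 and -0.04 (adjusted p-values 0.767 and 0.562, edgeR). The cytosolic transaminase Bcat1 decreased from 504 ± 3.22 to 349 ± 14.0 CPM (adjusted p-value 1.9e-08). Its mitochondrial relative Bcat2 decreased from 38.3 ± 1.32 to 32.9 ± 1.80 CPM (adjusted p-value 0.00925, but 0.677 with glmTreat).

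Of 7 genes that use glycine or serine, 4 were higher, none was lower and 3 did not pass, a called share of 57.1%, below the 65.9% of all genes tested. Of the 4, Gldc rested on a mean of 14.7 counts per library and Sptlc2 was 1.11-fold higher. Sptlc1, a subunit of the enzyme that joins serine to a fatty acid, increased from 55.2 ± 3.28 to 104 ± 0.912 CPM (adjusted p-value 8.7e-10, edgeR). Alas1, which starts heme synthesis from glycine, increased from 57.6 ± 0.815 to 71.1 ± 4.91 CPM (adjusted p-value 4.1e-04, but 0.209 with glmTreat). Over the lists of substrate use, 34 of 42 tested genes were called, where 65.9% of all genes were, and 12 of the 34 came from the list with glutathione genes.

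Genes of amino acid sensing by mTORC1 were called in 16 of 25 cases, 9 higher and 7 lower, a share of 64% next to 65.9% of all genes tested. Their median log2 fold change was 0.07. The negative regulator Depdc5 increased from 26.6 ± 2.52 to 42.0 ± 1.34 CPM (adjusted p-value 1.8e-06, edgeR), and Mios, of the complex that opposes it, from 16.6 ± 1.75 to 23.0 ± 1.54 CPM (adjusted p-value 4.6e-04). Nprl2 and Nprl3, of the same complex as Depdc5, were named after their values were seen. Both were lower, at log2 ratios of -0.39 and -0.26 (adjusted p-values 0.00333 and 0.0422, edgeR). Castor1, the arginine sensor, listed in the files under its older symbol Gatsl3, decreased from 20.3 ± 1.17 to 11.8 ± 2.28 CPM (adjusted p-value 3.9e-05). Sesn3, a sestrin, decreased from 17.6 ± 1.11 to 7.98 ± 1.63 CPM, 2.19-fold (adjusted p-value 1.8e-06).

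**Figure D4:**
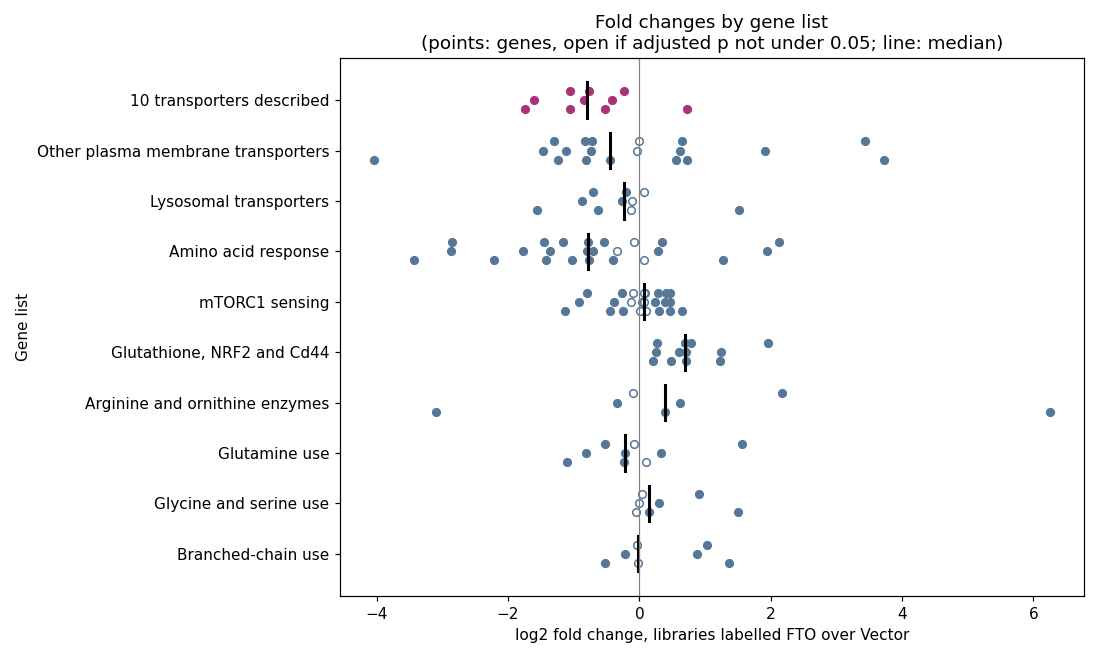
Log2 ratio of FTO-labelled to Vector libraries (horizontal axis) for each tested gene of 10 lists (rows), open where the adjusted p-value was not under 0.05, with the median of each list as a black line. Medians of the transporters and of the amino acid response lie at -0.80 and -0.78, and that of the list with glutathione and NRF2 genes at 0.70.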

How the data were processed

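Deposited values were raw counts, whole numbers per gene symbol, in 1 file per library, made by the authors from total RNA with a NEBNext Ultra library kit and Illumina sequencing. The submitters' processing notes name Trimmomatic and the build rn6. The aligner, counting program, annotation and use of strand are not given in the sources used here, so overlapping or antisense genes could share reads. Genes were kept with filterByExpr (minimum count 10), which left 12941, and scaled by TMM. The quasi-likelihood test of edgeR 4.0.16 in R 4.3.3 compared the groups without covariates, with Benjamini-Hochberg adjustment over all tested genes. SE and 95% intervals were derived from its F statistic. The depth of 13178952 to 17857999 counts made 3 counts worth 0.168 to 0.227 CPM, a floor for counting error only. DESeq2 1.42.0 and limma-voom (limma 3.58.1) were alternatives. The procedure was tested on simulated data with few changed genes, balanced up and down, which does not cover change as wide as here. The members and lists were chosen with earlier results of these data known. Named are the 10 transporters, Fto, Atf4, the light chains of Slc3a2 and, per list, the 2 largest changes each way (4 for other transporters) that passed the test without overlap and had a mean of 100 counts. A gene that this rule names is not reported here.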

Additional observations from a re-analysis of the deposited data

How the results depend on the processing

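Across 14 alternatives each (DESeq2, limma-voom, other scalings, other filters, the replicate block, glmTreat and each library left out in turn), the 10 transporters kept their direction, and 9 of them stayed under an adjusted p-value of 0.05. Slc38a2 was lost under glmTreat only. That test against a 1.2-fold change also called 5668 genes in place of 8531 and 9 mTORC1 sensing genes in place of 16, as its stricter hypothesis would give. Over all genes, the other alternatives called up to 9009. The pair ratios kept their direction when single libraries were left out. Fto was not called under any alternative (lowest adjusted p-value 0.182). Of 47 single genes followed, 5 lost their call, each under glmTreat, and none changed sign. Replicate numbers did not pair the libraries: deviations from group means correlated at 0.00, -0.08 and 0.03 for equal numbers, and Vector replicate 1 correlated best with replicate 2 of the other group (0.11). With the replicate block, 8399 genes, 10 transporters and 15 of the other transporters in place of 17 were called. Levels per length were not compared, since no transcript length was at hand. Depth limits genes near the floor, such as Slc7a10.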
